A study of Mus musculus with 10 samples.

Results

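The pocket proteins and the E2F transcription factors form the switch that couples cyclin-dependent kinase activity to the transcription of the genes for DNA replication and mitosis. Here the accessible chromatin in and around their genes was followed in cultured adult neural stem cells, for 10 members: the pocket protein genes Rb1, Rbl1 and Rbl2, the activator genes E2f1, E2f2 and E2f3, the pocket-dependent repressor genes E2f4 and E2f5, and the atypical repressor genes E2f7 and E2f8. A peak was assigned to a member when its summit lay in the gene body or within 20 kb of it in the GENCODE annotation of GRCm38. Peaks of different libraries that shared at least 1 base were merged, and a merged region with a peak in at least 2 libraries was called a consensus region. The 10 genes held 452 peaks in 65 merged regions, of which 57 were consensus regions, of 99231 in the whole series.

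Unphosphorylated pocket proteins bind E2F factors with their DP partners and hold their target promoters silent. Cyclin D and cyclin E kinases phosphorylate the pocket proteins in G1 and free the activator E2Fs, and p27, the product of Cdkn1b, inhibits these kinases. In quiescent cells the pocket proteins p107 and p130, the products of Rbl1 and Rbl2, join E2F4 or E2F5 and the MuvB core in the DREAM complex, which keeps cell cycle genes off until mitogens return.

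ATAC-seq, which marks open chromatin by transposase insertion, was run on 50000 cells per library from neural stem cell cultures of the subependymal zone of mice aged 10 weeks. The 4 groups were formed by genotype, WT or Cdkn1b (p27KO), and by culture state. Proliferating cells (PRO) were neurospheres grown for 3 days in vitro with EGF at 20 ng/ml and FGF at 10 ng/ml. Differentiating cells (DIFF) had 2 days on Matrigel with FGF, followed by 24 h in 2% serum from which mitogens were withheld, so that PRO and DIFF also differed in substrate and serum, and these cannot be told apart from mitogen withdrawal. WT had 3 libraries of each state and p27KO 2 of each, called biological replicates by the study. The sources used here do not tie each culture to an animal, so p-values measure the spread between these cultures. Titles and genotype entries were followed for p27KO, although the free text of those libraries speaks of WT cells. A peak over the Cdkn1b gene body was called in all 6 WT libraries and in none of the 4 p27KO libraries. Consensus regions within 3 kb of a start were found for 10 of 10 neural stem and progenitor markers in every library. Per library, 5 to 7 of 8 neuronal, 5 of 8 oligodendrocyte, 3 to 4 of 8 microglial and blood, and 2 to 3 of 8 endothelial marker genes had one. The defining markers Dcx, Mog, Mag, Ptprc, Spi1, Pecam1 and Cdh5 had none in any library.

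The lists held 57534 to 91801 peaks, with 76372 to 91801 in the 5 PRO libraries and 57534 to 88738 in the 5 DIFF libraries. Read depth was not known, so "no peak" means only that none was called. In bulk cultures, fewer cells with an open region and less accessibility per cell cannot be told apart. For each peak the fold enrichment at its summit was ranked within its own list and given as a percentile, where 100 is the strongest peak. A list that lacks weak peaks gives the same peak a lower percentile, so percentiles in the shorter lists lie lower by construction. For tests, the 70627 regions found in 5 or more libraries were ranked against each other within each library and turned into normal scores (rank-based values with a mean near 0 and an SD near 1). Absent peaks were tied at the bottom. That tied score ran from -1.91 to -1.07 between libraries, being higher where more regions were absent. A region absent from every library would therefore score 0.33 higher in DIFF than in PRO in WT and 0.45 higher in p27KO, a shift that bears on regions with missing peaks.

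Of the 57 consensus regions, 28 had a peak in all 10 libraries, which is 49.1% against 38.2% of all consensus regions. The summit lay inside the member gene in 20, upstream in 20 and downstream in 17. Regions within 3 kb of a start of a member numbered 12, and 11 of these were present in all 10 libraries. Of the 45 distal regions 17 were present in all 10, and 7 of those 17 lay within 1 kb of the start of another coding gene. Each library contributed 35 to 52 member peaks, with the lowest number in WT DIFF replicate 1 and the highest in WT DIFF replicate 3 and p27KO PRO replicate 1. The number of consensus regions ran from 3 at E2f5 and at E2f8 to 8 at Rb1, E2f4 and E2f7.

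**Figure D1:**
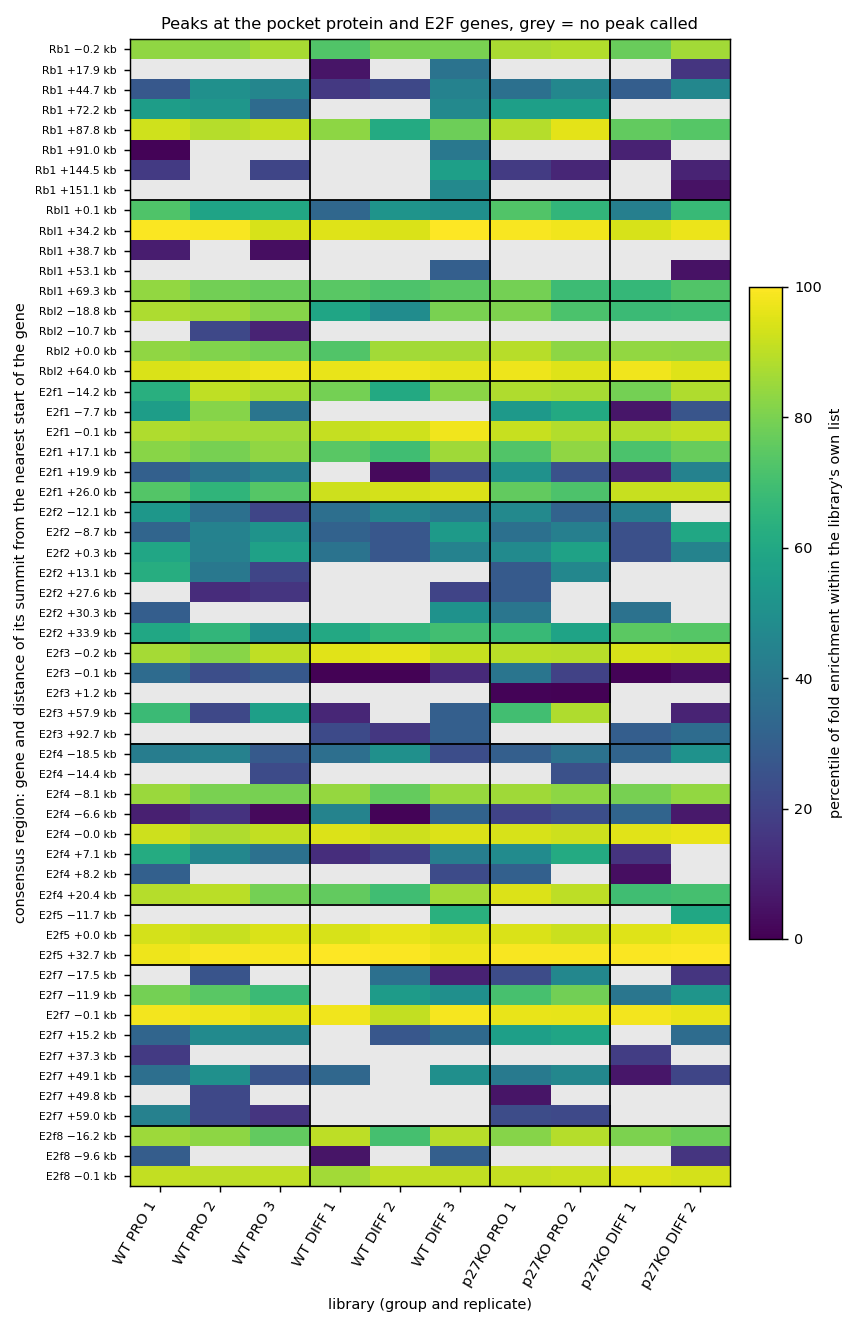
Percentile of fold enrichment of the 57 consensus regions (rows, by gene and distance of the summit from the nearest start of that gene) in the 10 libraries (columns, by group), with grey where no peak was called. Of the 12 regions within 3 kb of a start, 11 are filled in every library, and the grey cells lie mostly in the distal regions.

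All 10 members kept an accessible promoter in every library, from the strong regions at E2f7, E2f5 and E2f4 to the weak ones at Rbl1 and E2f2. In the test over promoters, which took for each gene the region nearest to a start and so held the internal and not the upstream start of E2f3, no member was called between PRO and DIFF or between genotypes. The E2f1 promoter passed the test over all regions in WT. By mean percentile over the 10 libraries the order was E2f7 (96.7 ± 2.29, SD, n = 10), E2f5 (94.3 ± 1.72), E2f4 (93.1 ± 2.56), E2f8 (91.0 ± 2.29), the upstream start of E2f3 (90.8 ± 4.32), E2f1 (90.2 ± 3.46), Rbl2 (82.8 ± 4.56), Rb1 (82.5 ± 5.04), Rbl1 (57.4 ± 12.9), E2f2 (44.5 ± 12.1) and the internal start of E2f3 (16.3 ± 14.9). Neighbours in this order differed by more than the SD of their difference over libraries at 4 places. E2f1 exceeded Rbl2 in 10 of 10 libraries, Rb1 exceeded Rbl1 in 10 of 10, Rbl1 exceeded E2f2 in 9 of 10, and E2f2 exceeded the internal E2f3 start in 10 of 10. The other neighbours did not differ beyond that spread.

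**Figure D2:**
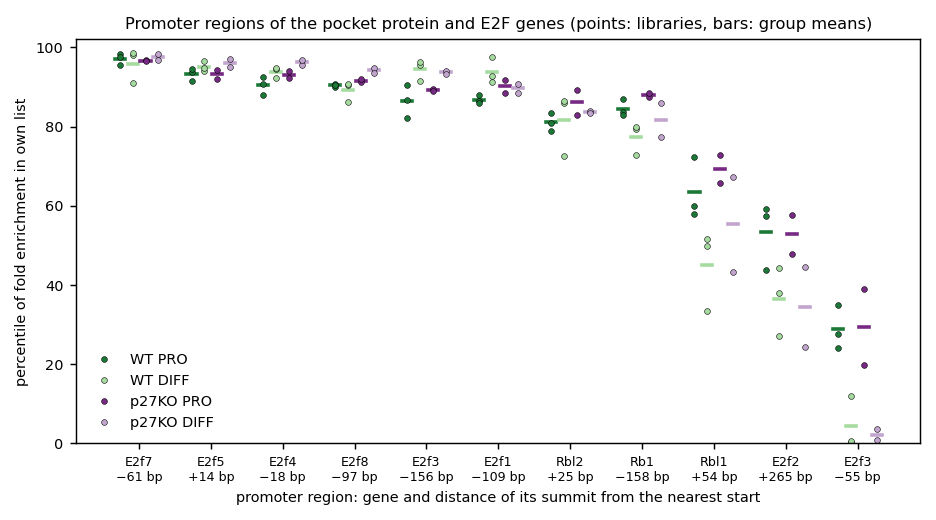
Percentile of fold enrichment within the library's own list (vertical axis, 0 to 100) of the 11 promoter regions of the 10 genes, ordered by mean. Points are libraries and bars group means. The first 6 regions lie between 82.1 and 98.7 in every library, while Rbl1, E2f2 and the internal start of E2f3 lie lower and spread more.

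Short stretches of these promoters are shown for their matches to E2F motifs. RefSeq (GRCm38.p6) windows of 300 bases, 250 before to 50 after a start, were held for 7 of the 10 genes. They were searched on both strands for the E2F motifs TTTCCCGC, TTTCGCGC, TTTGCCGC and TTTGGCGC. A match was present in the windows of Rbl1, E2f2, E2f3 and E2f7, and not in those of Rbl2, E2f1 or E2f8, while 2.26% of 32851 RefSeq windows held one. Outside its RefSeq window, the 150 bases at the summit of the E2f8 promoter region (chr7:48881063-48881212) held 1 E2F match. Summit windows of the other member promoter regions held none, and 0.79% of such windows at all tested regions held one. The E2f1 window lay inside the first annotated exon. The 250 bases before the E2f1 start of GENCODE (chr2:154569893-154570142, minus strand) also held no match, against 1.86% of RefSeq windows of that length. The bases between these windows of E2f1 were not searched. The 3 upstream stretches with a match are printed below 5′ to 3′ on the strand of the gene and end at the base before the RefSeq start, with the match in capitals. In E2f3 and E2f7 the capitals are TTTCCCGC read on the other strand. The first base of the match lay 18 bases before the start in Rbl1, 11 before in E2f3 and 198 before in E2f7. All 3 windows lay in a merged region that had a peak in 10 of 10 libraries. Whether the peak of each library reached the window itself was not examined.
Rbl1, chr2:157204535-157204784, minus strand: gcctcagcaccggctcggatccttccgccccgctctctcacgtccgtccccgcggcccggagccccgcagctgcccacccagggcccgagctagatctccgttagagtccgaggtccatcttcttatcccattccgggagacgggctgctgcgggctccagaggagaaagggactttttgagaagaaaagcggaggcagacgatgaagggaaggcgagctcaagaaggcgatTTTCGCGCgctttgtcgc
E2f3, chr13:29986064-29986313, minus strand: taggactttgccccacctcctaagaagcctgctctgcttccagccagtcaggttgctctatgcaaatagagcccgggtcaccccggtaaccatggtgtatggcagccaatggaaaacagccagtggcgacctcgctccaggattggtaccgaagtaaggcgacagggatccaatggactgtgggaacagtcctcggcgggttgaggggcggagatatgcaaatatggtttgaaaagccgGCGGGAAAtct
E2f7, chr10:110745189-110745438, plus strand: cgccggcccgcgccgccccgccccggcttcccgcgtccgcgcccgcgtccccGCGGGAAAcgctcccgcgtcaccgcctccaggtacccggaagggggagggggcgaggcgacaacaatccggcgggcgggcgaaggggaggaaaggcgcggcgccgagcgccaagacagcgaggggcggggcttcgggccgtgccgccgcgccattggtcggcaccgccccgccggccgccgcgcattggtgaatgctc

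Rb1 encodes RB, the pocket protein that binds the activator E2Fs. Its promoter region, chr14:73324691-73326469 (GRCm38), had percentiles of 83.6, 83.01 and 86.9 in WT PRO and 72.8, 79.5 and 79.97 in WT DIFF. In p27KO the values were 87.4 and 88.5 in PRO and 77.3 and 86.03 in DIFF. The DIFF percentiles lay below the PRO percentiles in both genotypes without overlap. On the normal scores the change was -0.17 ± 0.18 (SE) in WT and -0.12 ± 0.21 in p27KO, with adjusted p = 0.660 and 0.858 by limma over all promoters.

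Inside Rb1, a narrow intronic region 72.2 kb downstream of the start, chr14:73253560-73253847, lost its peaks on differentiation in p27KO. WT PRO percentiles were 55.7, 52.5 and 34.9, and of the WT DIFF libraries only replicate 3 had a peak, at 47.3. Both p27KO PRO libraries had a peak, at 56.4 and 56.6, and neither p27KO DIFF library did. The change was -1.26 ± 0.29 in p27KO (adjusted p = 0.0157, limma over all regions) and -0.68 ± 0.24 in WT (adjusted p = 0.0655). The difference between the genotypes was -0.58 ± 0.37 (adjusted p = 0.9998 by limma), so a difference was not shown. The p27KO call was lost when any 1 of the 4 p27KO libraries was left out (adjusted p = 0.0528 to 0.114 by limma), and without the third WT DIFF library the WT change of -0.89 passed the test (adjusted p = 0.0213 by limma).

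A stronger region inside Rb1, 87.8 kb downstream of its start, coincided with the 5′ end of Lpar6, a lysophosphatidic acid receptor gene that lies in an Rb1 intron. Its percentiles were 92.8, 88.8 and 91.3 in WT PRO and 82.8, 60.96 and 78.1 in WT DIFF, and 88.8 and 96.04 in p27KO PRO and 75.8 and 73.7 in p27KO DIFF. PRO lay above DIFF without overlap in both genotypes. The changes of -0.59 ± 0.22 in WT and -0.70 ± 0.27 in p27KO did not pass the limma test (adjusted p = 0.0860 and 0.123).

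Rbl1 encodes p107, the pocket protein that is itself made in cycling cells. Its promoter region, chr2:157203883-157205118, had percentiles of 72.4, 57.8 and 59.96 in WT PRO against 33.3, 51.7 and 49.8 in WT DIFF. The p27KO values were 72.8 and 65.7 in PRO and 43.4 and 67.2 in DIFF. All WT DIFF values lay below the WT PRO values, and p27KO DIFF overlapped p27KO PRO. The change in score was -0.31 ± 0.22 in WT and -0.14 ± 0.27 in p27KO (adjusted p = 0.503 and 0.866 by limma). An intronic Rbl1 region 34.2 kb downstream of the start was stronger than the promoter in every library, with percentiles from 93.9 to 99.7.

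Rbl2 encodes p130, the pocket protein of DREAM in quiescent cells. Percentiles of its promoter region, chr8:91069692-91071104, were 83.5, 80.9 and 78.96 in WT PRO and 72.7, 85.98 and 86.3 in WT DIFF, with overlap. They were 89.2 and 83.03 in p27KO PRO and 83.96 and 83.4 in p27KO DIFF. The changes were 0.14 ± 0.18 and 0.02 ± 0.22 (adjusted p = 0.731 and 0.978 by limma). Of the other Rbl2 regions, the one 18.8 kb upstream, over a coding exon of the neighbouring Chd9, moved most. It had percentiles of 87.6, 86.1 and 81.7 in WT PRO and 58.7, 48.5 and 79.7 in WT DIFF, and its WT change of -0.57 ± 0.18 just missed the test (adjusted p = 0.0502 by limma). In p27KO its percentiles were 80.5 and 71.6 in PRO and 68.2 and 68.9 in DIFF, without overlap. On the normal scores its p27KO change was -0.06 ± 0.22. The difference between genotypes was 0.51 ± 0.29 (adjusted p = 0.9998 by limma), so a difference was not shown.

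E2f1, the activator best known for its induction at the G1 to S transition, held 3 of the 5 regions called in WT, at 3 separate positions and in both directions. It also held 6 of the 42 tested member regions, and 19.2% of all regions were called in WT. The promoter and a region downstream were higher in DIFF, and a region upstream was lower. Its promoter region, chr2:154568976-154570419, had percentiles of 88, 86.5 and 86.04 in WT PRO and 91.2, 92.7 and 97.7 in WT DIFF. Percentiles in p27KO were 91.8 and 88.5 in PRO and 88.6 and 90.8 in DIFF. WT DIFF lay above WT PRO without overlap, and the p27KO values overlapped. The WT change was 0.57 ± 0.18, which passed the limma test over all regions (adjusted p = 0.0447) and not over promoters alone (adjusted p = 0.188). The p27KO change was 0.10 ± 0.22 and the difference between genotypes -0.47 ± 0.28 (adjusted p = 0.9998 by limma). Leaving out any 1 of the 10 libraries ended the call (adjusted p = 0.0519 to 0.124 by limma), and ranking the peaks by their p-value instead of fold enrichment gave a WT change of 0.08.

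The upstream E2f1 region, 7.67 kb before the start with no other gene nearer, chr2:154577466-154577805, had a peak in all 3 WT PRO libraries and in none of the WT DIFF libraries. The WT PRO percentiles were 55.7, 81.9 and 38.8. In p27KO the peak was present in all 4 libraries, with percentiles of 53.6 and 60.5 in PRO and 6.22 and 26.3 in DIFF. Both p27KO DIFF values thus lay below the p27KO PRO values. The change was -1.48 ± 0.30 in WT (adjusted p = 0.00589) and -0.58 ± 0.37 in p27KO (adjusted p = 0.365, both by limma). The difference of these changes was 0.90 ± 0.48 (adjusted p = 0.9998 by limma), so the presence of the peak in p27KO DIFF was not shown to be a difference between the genotypes. The WT call held with any 1 library left out (adjusted p = 0.00609 to 0.0334 by limma) and was lost when a library counted only where its peaks covered at least 50% of the region (-0.95, adjusted p = 0.0917 by limma).

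The downstream region at 26.0 kb from the E2f1 start, chr2:154543530-154544359, lay 15.7 kb beyond the 3′ end of E2f1 and 686 bases outside Necab3. Percentiles were 73.1, 65.6 and 73.7 in WT PRO and 92.2, 93.5 and 94.7 in WT DIFF. In p27KO they were 76.01 and 72.1 in PRO and 91.5 and 91.5 in DIFF. All 5 DIFF libraries lay above all 5 PRO libraries. The region rose by 1.07 ± 0.16 in WT (adjusted p = 0.00109) and by 0.91 ± 0.20 in p27KO (adjusted p = 0.0133, both by limma). Leaving out any 1 of the 4 p27KO libraries ended the p27KO call (adjusted p = 0.0617 to 0.0854 by limma), while the WT call held without any 1 library. With peaks covering at least 50% of the region the WT call was lost (1.20, adjusted p = 0.0531 by limma), and the p27KO call held (1.80, adjusted p = 0.0333 by limma).

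**Figure D3:**
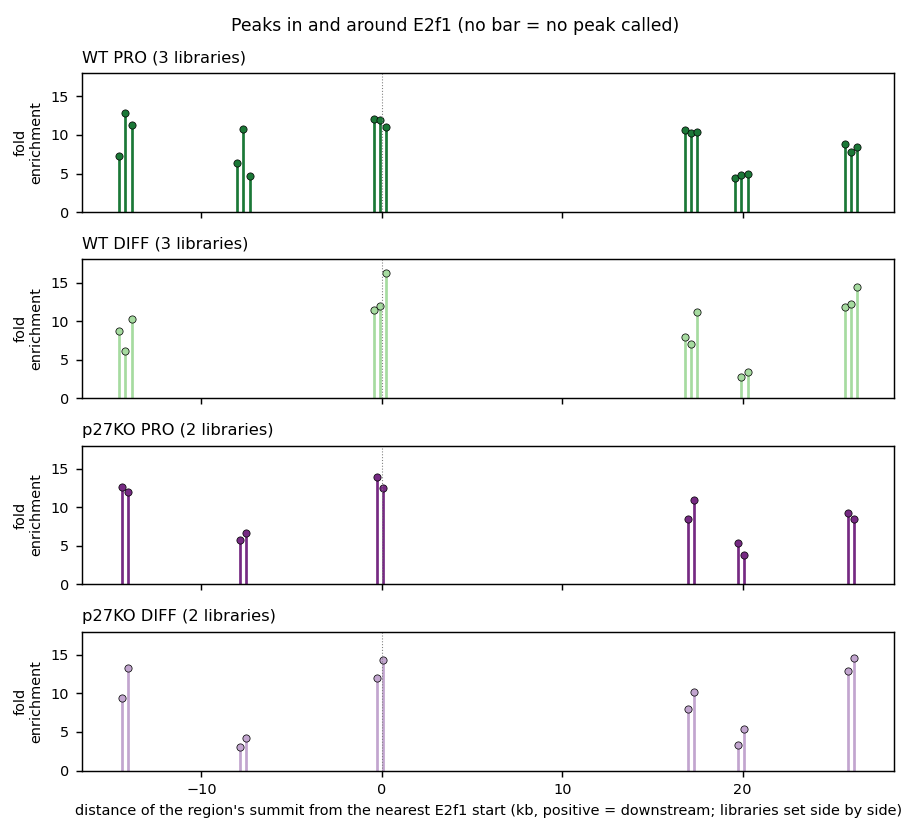
Fold enrichment of the peaks in the 6 E2f1 consensus regions (vertical axis) by distance of the summit from the nearest E2f1 start in kb (horizontal axis, positive downstream), 1 panel for each group and 1 bar for each library. The bars 7.67 kb upstream are missing in WT DIFF and short in p27KO DIFF, and the bars 26.0 kb downstream are higher in DIFF (11.8 to 14.6) than in PRO (7.78 to 9.21).

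The 150 bases at the summits of the E2f1 distal regions are given on the plus strand to show the sequence beneath the changes in opposite directions. Capitals mark matches to a SOX motif (ACAAAG or ACAATG), an E-box (CAGCTG) or an AP-1 motif (TGAGTCA), searched on both strands together with the E2F motifs. Over 70509 such windows at tested regions, 23.5% held the SOX, 17.8% the E-box, 4.94% the AP-1 and 0.79% an E2F motif. The upstream window, which was lower in DIFF, held 1 SOX match and 1 E-box. The downstream window, which was higher in DIFF, held no match. The summit window of the E2f1 promoter region, also higher in WT DIFF, held 1 SOX match. A link between motifs and the direction of change was not tested.
E2f1 7.67 kb upstream, chr2:154577490-154577639: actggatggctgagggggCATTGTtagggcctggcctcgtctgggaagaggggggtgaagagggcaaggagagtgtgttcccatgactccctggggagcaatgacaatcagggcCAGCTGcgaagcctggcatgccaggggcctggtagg
E2f1 26.0 kb downstream, chr2:154543638-154543787: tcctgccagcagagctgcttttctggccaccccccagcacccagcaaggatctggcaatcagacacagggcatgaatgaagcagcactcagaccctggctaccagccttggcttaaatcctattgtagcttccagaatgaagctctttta

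E2f2, an activator that overlaps with E2f1 and E2f3 in driving S phase, had a weak promoter region, chr4:136172097-136173573. Its percentiles were 59.3, 43.8 and 57.3 in WT PRO and 38.01, 27.1 and 44.4 in WT DIFF, and 47.95 and 57.7 in p27KO PRO and 24.4 and 44.6 in p27KO DIFF. The WT groups overlapped in part, and the changes were -0.21 ± 0.20 and -0.11 ± 0.25 (adjusted p = 0.639 and 0.891 by limma). The E2F match of its RefSeq window lay 39 bases after the RefSeq start, in the stretch gcggcatatagTTTGGCGCtaa, which precedes the GENCODE start.

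An intronic E2f2 region 13.1 kb downstream of the start, chr4:136185448-136185659, had a peak in all 5 PRO libraries and in none of the 5 DIFF libraries. The PRO percentiles were 62.4, 39.9 and 20.7 in WT and 28.3 and 46.3 in p27KO. PRO and DIFF thus did not overlap in presence in either genotype. The change was -0.99 ± 0.29 in WT (adjusted p = 0.0348) and -0.72 ± 0.36 in p27KO (adjusted p = 0.233, both by limma). The 5 libraries needed for a test were all PRO libraries. The selection itself thus favoured the difference, and the p-values give no independent support for it. The WT call was lost without any 1 of the 5 DIFF libraries (adjusted p = 0.066 to 0.162 by limma), and without any 1 PRO library the region had too few peaks to be tested. It was also lost with peaks ranked by their p-value (-0.89, adjusted p = 0.0573 by limma) and with peaks covering at least 50% of the region (-0.50, adjusted p = 0.269 by limma). Its summit window, chosen for printing after its values were seen, held 1 AP-1 match.
E2f2 13.1 kb downstream, intron, chr4:136185457-136185606, plus strand: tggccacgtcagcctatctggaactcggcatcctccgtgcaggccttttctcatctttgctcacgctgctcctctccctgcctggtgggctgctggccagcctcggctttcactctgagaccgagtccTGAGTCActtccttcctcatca

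E2f3, the activator gene with an upstream and an internal start for its long and short forms, kept both promoter regions in all 10 libraries. The upstream region, chr13:29985761-29986808, had percentiles of 86.6, 82.05 and 90.5 in WT PRO and 95.5, 96.3 and 91.4 in WT DIFF. The p27KO values were 89.6 and 89.1 in PRO and 94.03 and 93.3 in DIFF. DIFF lay above PRO without overlap in both genotypes, with changes of 0.58 ± 0.21 and 0.41 ± 0.25 that did not pass the limma test over all regions (adjusted p = 0.0755 and 0.349).

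The internal region of E2f3, chr13:29984157-29985006, was much weaker and had percentiles of 35.03, 24.1 and 27.7 in WT PRO and 0.434, 0.547 and 11.9 in WT DIFF. Percentiles in p27KO were 39.05 and 19.8 in PRO and 0.812 and 3.57 in DIFF. DIFF lay below PRO in both genotypes without overlap in percentile. On the normal scores, where absent regions are tied below, the changes were -0.15 ± 0.21 and -0.08 ± 0.26 and did not pass the limma test over promoters (adjusted p = 0.751 and 0.925). Among only those regions with a peak in all 10 libraries the WT change was -1.29 and passed (adjusted p = 0.026 by limma).

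Further into E2f3, an intronic region 57.9 kb downstream of the internal start, chr13:29926290-29926796, was lower in p27KO DIFF than in p27KO PRO. Percentiles were 68.1, 21.9 and 56.2 in WT PRO, while WT DIFF had 10.8 and 30.1 in replicates 1 and 3 and no peak in replicate 2. In p27KO they were 69.6 and 87.9 in PRO, with no peak in DIFF replicate 1 and 10.01 in DIFF replicate 2. WT groups overlapped and p27KO groups did not. The region fell by 1.74 ± 0.39 in p27KO (adjusted p = 0.0144 by limma), and the WT change was -0.67 ± 0.32 (adjusted p = 0.176 by limma). The difference between genotypes was -1.08 ± 0.50 (adjusted p = 0.9998 by limma). The p27KO call was lost without the second p27KO PRO or either p27KO DIFF library (adjusted p = 0.0646 to 0.12 by limma), and without the second WT PRO library the WT change of -1.11 passed (adjusted p = 0.0301 by limma).

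Beyond the 3′ end of E2f3, a region of 198 bases, chr13:29891666-29891863, 14.9 kb outside the gene and 92.7 kb from its internal start, had a peak in all 5 DIFF libraries and in none of the 5 PRO libraries. The DIFF percentiles were 22.5, 16.2 and 30.1 in WT and 29.96 and 35.5 in p27KO, so these were weak peaks, with fold enrichments from 3.47 to 4.83. DIFF and PRO did not overlap in presence in either genotype. The region rose by 1.14 ± 0.18 in WT (adjusted p = 0.00146) and by 1.44 ± 0.22 in p27KO (adjusted p = 0.00215, both by limma). The shift of 0.33 and 0.45 that 2 absences give on this scale is part of these values. When every list was cut to its strongest 57534 peaks, the region no longer had a peak in every WT DIFF library and fell below the 5 libraries needed for a test. That number was met only through its DIFF peaks, and leaving out any DIFF library also left the region untested. The selection itself thus favoured the difference, and the p-values give no independent support for it.

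Summit windows of both E2f3 regions, 150 bases on the plus strand, are shown as the strongest p27KO call in each direction. The intronic window held 1 SOX match, and the downstream window held none of the motifs.
E2f3 57.9 kb downstream, intron, chr13:29926417-29926566: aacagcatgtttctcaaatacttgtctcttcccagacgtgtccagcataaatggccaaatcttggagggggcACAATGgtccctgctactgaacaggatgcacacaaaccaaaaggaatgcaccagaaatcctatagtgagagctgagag
E2f3 92.7 kb downstream, chr13:29891635-29891784: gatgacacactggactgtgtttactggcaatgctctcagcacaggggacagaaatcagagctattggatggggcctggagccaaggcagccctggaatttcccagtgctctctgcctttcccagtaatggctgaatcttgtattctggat

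E2f4, the most abundant partner of p107 and p130 in non-cycling cells, had a strong promoter region, chr8:105297286-105298141. Its percentiles were 92.5, 88.05 and 90.7 in WT PRO and 94.6, 92.2 and 94.8 in WT DIFF, and 93.9 and 92.2 in p27KO PRO and 95.6 and 96.8 in p27KO DIFF. The p27KO groups did not overlap and the WT groups did. The changes were 0.31 ± 0.16 and 0.41 ± 0.20 (adjusted p = 0.385 and 0.527 by limma).

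In the gene-dense surroundings of E2f4, a region in an intron of Lrrc29, 12.7 kb beyond the 3′ end of E2f4, chr8:105317678-105318459, was lower in p27KO DIFF. Percentiles were 88.9, 89.8 and 79.1 in WT PRO and 76.1, 69.3 and 86.04 in WT DIFF, with overlap. The p27KO values were 94.8 and 89.9 in PRO and 69.2 and 70.7 in DIFF, with a gap between the groups. The p27KO change was -0.81 ± 0.23 (adjusted p = 0.0444) and the WT change -0.23 ± 0.19 (adjusted p = 0.445, both by limma). The difference between genotypes was -0.58 ± 0.30 (adjusted p = 0.9998 by limma), so a difference was not shown. The call was lost without any 1 library other than the third WT PRO library (adjusted p = 0.0526 to 0.23 by limma), and with peaks covering at least 50% of the region the p27KO change was -2.19 (adjusted p = 0.0204 by limma). The largest change at E2f4 averaged over genotypes was at its 3′ end, within 1 kb of the start of Elmo3, with -0.29 ± 0.25 in WT and -0.89 ± 0.31 in p27KO (adjusted p = 0.477 and 0.0887 by limma).

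E2f5, the second pocket-dependent repressor, had the least variable promoter region of all members, chr3:14578390-14580057. The percentiles were 93.7, 91.4 and 94.5 in WT PRO and 94.1, 96.5 and 94.8 in WT DIFF, and 94.3 and 92.05 in p27KO PRO and 95.05 and 97.02 in p27KO DIFF. WT groups overlapped and p27KO groups did not. The changes were 0.23 ± 0.18 and 0.38 ± 0.22 (adjusted p = 0.540 and 0.556 by limma). The other tested region, 5.07 kb beyond its 3′ end and within 1 kb of the start of 1810022K09Rik, was stronger still, at 97.6 to 99.7 in every library.

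E2f7 encodes an atypical repressor that binds without a DP partner and dampens E2F targets late in S phase. Its promoter region, chr10:110744867-110745968, had percentiles of 98.2, 97.6 and 95.4 in WT PRO and 98, 90.9 and 98.7 in WT DIFF. Percentiles in p27KO were 96.9 and 96.5 in PRO and 98.4 and 96.7 in DIFF. The WT groups overlapped, and the changes were 0.01 ± 0.22 and 0.25 ± 0.27 (adjusted p = 0.984 and 0.751 by limma).

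E2f7 had 8 consensus regions and only 1, the promoter, in all 10 libraries. A region 17.2 kb beyond its 3′ end, in an intron of 1700020G17Rik, chr10:110804338-110804689, had a peak in all 5 PRO libraries and in none of the 5 DIFF libraries. The PRO percentiles were 44.1, 21.9 and 15.4 in WT and 23.1 and 22.1 in p27KO. It separated the states by presence and was not called, with changes of -0.63 ± 0.24 in WT and -0.35 ± 0.29 in p27KO (adjusted p = 0.0884 and 0.4998 by limma). A region 11.9 kb upstream of E2f7, chr10:110733350-110733786, moved most, with percentiles of 79.1, 74.5 and 68.05 in WT PRO, 54.7 and 49.8 in WT DIFF replicates 2 and 3 and no peak in replicate 1. In p27KO it had 70.9 and 78.7 in PRO and 39.4 and 52.2 in DIFF. PRO lay above DIFF in both genotypes, and the changes were -0.93 ± 0.31 and -0.56 ± 0.38 (adjusted p = 0.0606 and 0.405 by limma). The summit window of the downstream region, printed after its values were seen, held 1 AP-1 and 1 SOX match.
E2f7 59.0 kb downstream, chr10:110804479-110804628, plus strand: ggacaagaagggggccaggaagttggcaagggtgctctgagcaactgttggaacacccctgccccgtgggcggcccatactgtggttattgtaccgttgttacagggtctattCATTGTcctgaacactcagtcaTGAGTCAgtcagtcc

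E2f8, the other atypical repressor, had a promoter region, chr7:48880644-48881774, with percentiles of 90.8, 89.95 and 90.6 in WT PRO and 86.2, 90.5 and 90.7 in WT DIFF. In p27KO they were 91.1 and 91.9 in PRO and 94.9 and 93.6 in DIFF. WT groups overlapped, and p27KO DIFF lay above p27KO PRO. The changes were 0.01 ± 0.16 and 0.32 ± 0.20 (adjusted p = 0.979 and 0.582 by limma).

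Of all 42 tested regions of the members, 5 were called between WT PRO and WT DIFF (11.9%), 2 lower and 3 higher in DIFF. Of all 70627 regions 19.2% were called, with 10.1% lower and 9.15% higher. In p27KO 5 of 42 were called, 3 lower and 2 higher, against 12.3% of all regions, with 6.48% lower and 5.83% higher. Over both directions together, the members' share was therefore below that of all regions in WT and close to it in p27KO (11.9%). By direction, only the regions lower in p27KO made up a slightly larger share than over all regions. The median change of the member regions was -0.04 in WT and -0.0006 in p27KO, and that of all regions 0.03 and 0.04. Changes ran from -1.48 to 1.14 in WT and from -1.74 to 1.44 in p27KO. The 2 regions called in both genotypes were the downstream regions of E2f1 and E2f3. The downstream E2f3 region and the intronic E2f2 region called in WT entered the test only through the state in which they were higher.

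**Figure D4:**
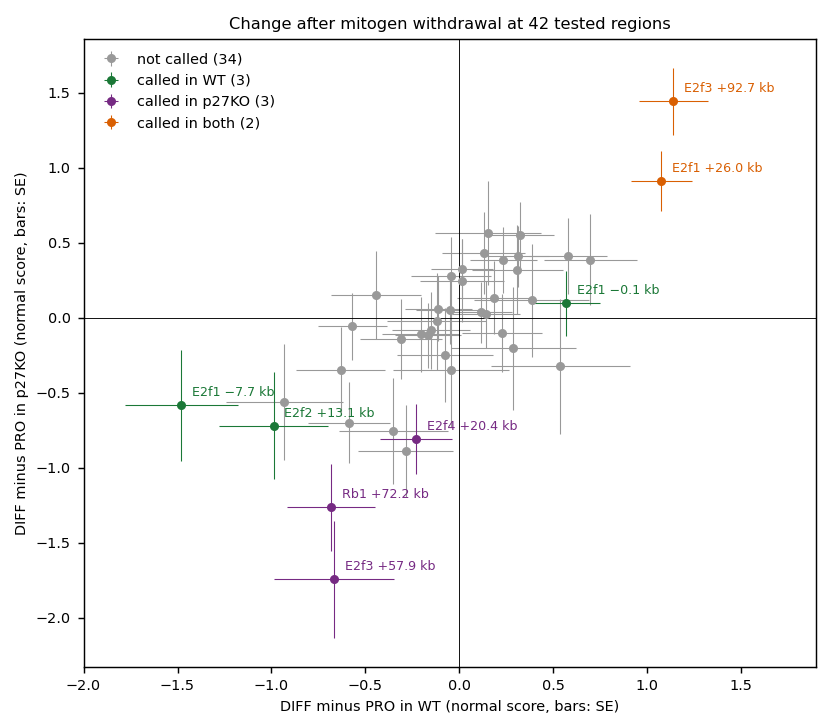
Change in normal score from PRO to DIFF in WT (horizontal axis) and in p27KO (vertical axis) at the 42 tested member regions, with SE bars. The 2 regions called in both genotypes lie at the upper right, and the 6 called in 1 genotype have the same sign in the other.

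**Figure D5:**
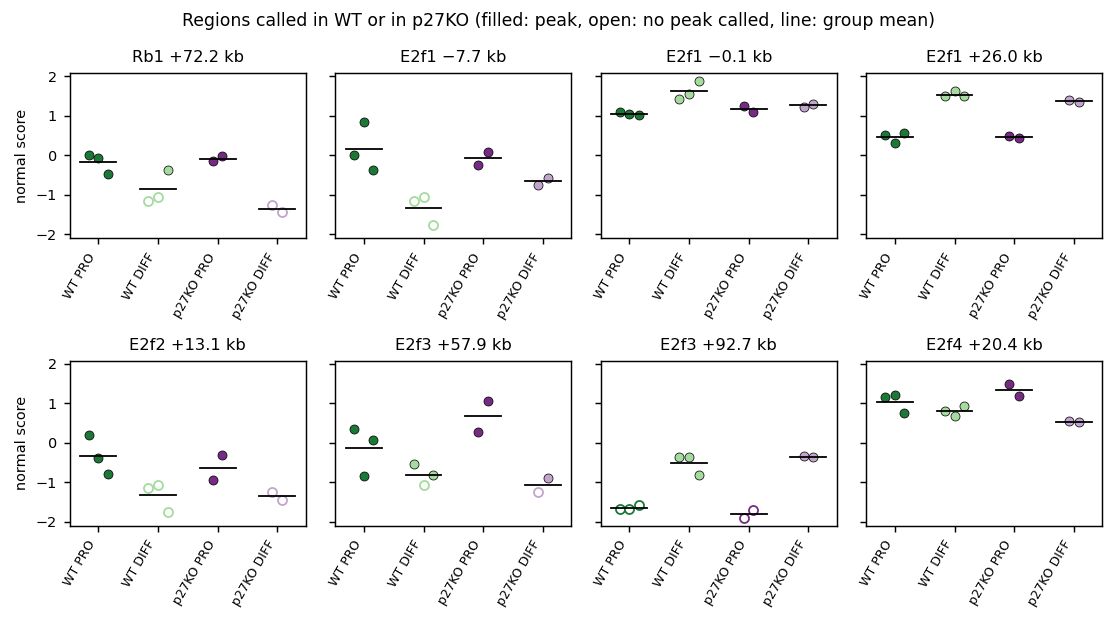
Normal scores (vertical axis) of the 8 called regions in each library, by group, with filled points for a called peak, open points for none and a line for the group mean. The region 26.0 kb downstream of E2f1 has filled points in all 10 libraries and a gap between PRO and DIFF in both genotypes, whereas the region 92.7 kb downstream of E2f3 has open points in all 5 PRO libraries.

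By presence alone, 3 of the 57 consensus regions had a peak in every WT PRO and no WT DIFF library, at E2f1, E2f2 and E2f7, against 4.32% of all consensus regions. At E2f3, 1 of 57 had the reverse pattern, against 1.86%. In p27KO, 4 had a peak in both PRO and neither DIFF library, at Rb1, E2f2, E2f3 and E2f7 (against 10.9%), and 1, at E2f3, the reverse (against 3.32%). The E2f2 and E2f7 regions separated all 5 PRO from all 5 DIFF libraries (2 of 57, against 2.61%), and so did the E2f3 region in the reverse direction (1 of 57, against 0.959%). The members' shares were close to or below those of all regions, and the PRO lists, in which more regions had peaks alone, were also the longer ones in most libraries. With every list cut to the same length, 1 region in WT and 2 in p27KO had peaks in PRO alone.

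No member region was called between the genotypes, in its response or within either state. For the difference of the changes, 0 of 42 regions were called by limma (0 at unadjusted p under 0.05), against 0% of all regions. At PRO 0 of 42 were called (1 at unadjusted p under 0.05, the intronic E2f3 region at 57.9 kb), against 0.034% of all regions, and at DIFF 0 of 42 (0 at unadjusted p under 0.05), against 0.0156%. The median SE of the difference of changes at these regions was 0.35, and differences of that size were not detectable at this spread. By presence, 0 regions had a peak in all WT and no p27KO library at PRO (against 0.498%) or at DIFF (against 0.47%). The region with peaks in both p27KO PRO libraries and no WT PRO library (1 of 57, against 2.29%) was an intronic stretch of 92 bases, 1.20 kb downstream of the internal E2f3 start. Its percentiles were 0.83 and 0.423, at the bottom of both lists. The E2f1 region 7.67 kb upstream was the 1 of 57 with peaks in both p27KO DIFF and no WT DIFF library, against 0.707%.

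At promoters, 0 of 10 members were called by limma from PRO to DIFF in WT (1 at unadjusted p under 0.05, E2f1), against 0.864% of 14933 promoters, and 0 of 10 in p27KO (0 at unadjusted p under 0.05), against 0.482%. For the difference of the changes 0 of 10 were called, against 0% of all promoters. Between genotypes 0 of 10 were called at PRO and 0 of 10 at DIFF, against 0.0268% in each, with 0 at unadjusted p under 0.05 in all 3 of these comparisons. The median change of the 10 promoters was 0.01 in WT and 0.06 in p27KO, and that of all promoters 0.12 and 0.14. The Cdkn1b promoter, which served as the check of the genotype, fell by 2.75 ± 0.19 at PRO (adjusted p = 5.58e-05 by limma) and by 2.38 ± 0.19 at DIFF (adjusted p = 0.000248 by limma).

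Partners and targets of these factors were examined at their promoters, from lists of well-known pathway genes. Of 18 genes for DP partners, MuvB subunits, RB kinases and their cyclins, 18 were tested and 0 were called by limma in any of the 5 comparisons. At unadjusted p under 0.05 there were 2 from PRO to DIFF in WT, against 15.1% of all promoters, and 3 in p27KO, against 10.1%. There was 1 for the difference of the changes (against 1.81%), with 0 between genotypes at PRO (against 2.77%) and 2 at DIFF (against 2.6%). Their median change was 0.24 in WT and 0.28 in p27KO. Of 40 E2F target genes for replication, repair and mitosis, 1 was called higher in WT DIFF and 0 lower, against 0.864% of all promoters called, and 0 were called in p27KO, against 0.482%. At unadjusted p under 0.05 there were 11 of 40 in WT and 5 of 40 in p27KO, and 0 in each of the 3 comparisons involving genotype, against the shares of all promoters given above. Their median changes were 0.20 and 0.10. The called target was Uhrf1, which maintains DNA methylation at replication forks, with a WT change of 0.93 ± 0.165 (adjusted p = 0.0253 by limma) and a p27KO change of 0.70 ± 0.202 (adjusted p = 0.251 by limma).

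Of the 10 promoters in the test over promoters, which did not hold the upstream start of E2f3, that of E2f1 had the widest range of group means, over 0.57 normal scores. The 3 protein-coding promoters whose scores ran most like it over the 10 libraries were Hspa2, Epop and Terf2, each with Pearson r = 0.93. The points share libraries and lists of different lengths, and these values are a description with no test.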

How the data were processed

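By the account in the labels and methods, the authors trimmed reads with Cutadapt and Trimmomatic, mapped them to GRCm38 with Bowtie2 and called narrow peaks in each library with MACS2 at an FDR of 0.05; versions are not given in the sources used here. The deposited lists give, for each peak, the fold enrichment over background (a ratio) and −log10 p-values and q-values as the authors' peak caller wrote them. They hold no counts or depths, so the test on alignments used by the study was not run, and no interval for counting error could be given. Ranking within a list removes a common scale between libraries but leaves the effect of list length.

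Lists were joined into consensus regions and matched to members and starts through GENCODE. Normal scores of the highest fold enrichment per region were compared in limma (version 3.58.1, R version 4.3.3). The fit had a mean for each group and used all 10 libraries, with Benjamini-Hochberg adjustment over all tested regions or over all promoters (1 region per protein-coding gene within 3 kb of a start, nearest summit), and a threshold of 0.05. All tests were two-sided. The fit was tested on simulated normal scores with known changes, and the scoring of peaks, with its ties for absent ones, was not part of that simulation. Presence was counted without a test. Named regions were every promoter, every called region, every region separated by presence and the region of each gene with the largest mean change; windows for printing followed the smallest p in each direction unless stated otherwise.

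Alternatives were ranking by −log10 p-value, other region filters, lists of equal length, peaks with −log10 q of at least 2, peaks covering at least 50% of a region, other windows (5 kb, and 1 kb for promoters), chromosomes X and Y left out, fitting only the groups compared, a replicate block and leaving out each library. A spread estimated over promoters alone and a crossed block were added after seeing the data. The members and lists were chosen with earlier results of these data known. The study's results name another culture age for neurospheres than its methods and labels, which were followed.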

Additional observations from a re-analysis of the deposited data

How the results depend on the processing

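The limits of these lists are that weak peaks depend on list length and that 2 groups hold 2 libraries. Counting a library only where its peaks covered at least 50% of a region left 1 called member region in WT, 92.7 kb downstream of E2f3, and 3 in p27KO (from 5 and 5). That E2f3 region entered the test only through its DIFF peaks. All 3 E2f1 calls and the E2f2 call in WT were lost (adjusted p = 0.0506 to 0.269 by limma), and in p27KO the Rb1 region and the intronic E2f3 region were no longer tested. This setting also raised the p27KO regions with peaks in PRO alone to 8 and lowered those with peaks in p27KO DIFF alone among DIFF libraries to 0. Among regions with a peak in all 10 libraries, 3 were called in p27KO, and 1 promoter in WT (the internal E2f3 start). With lists of equal length the regions with peaks in PRO alone were 1 in WT and 2 in p27KO, those in WT DIFF alone 0, and those in p27KO alone 0 at PRO and 0 at DIFF. A window of 5 kb held 28 regions. The causes were not tested, except that stricter filters test fewer regions.

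With 1 library left out, called regions ran from 2 to 6 in WT and from 0 to 5 in p27KO, being 0 without either p27KO DIFF library; a lone library left in an arm was assumed to vary like the other groups. Regions by presence ran from 3 to 4 (PRO alone) and 1 to 2 (DIFF alone) in WT, from 4 to 8 and 1 to 6 in p27KO, from 0 to 1 (WT alone) and 0 to 2 (p27KO alone) at PRO, and from 0 to 2 and 1 to 2 at DIFF. Called promoters were 0 in each of these fits.

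Some promoter changes reversed, none of them called. Ranking by −log10 p gave E2f1 in p27KO -0.15, E2f5 in WT -0.0709, E2f7 -0.31 in WT and -0.0928 in p27KO, and E2f8 -0.39 in WT and -0.0906 in p27KO. The internal E2f3 start turned to 0.15 in WT and 0.0904 in p27KO with 50% cover, and E2f8 in WT to -0.0009 among regions in all libraries. With lists of equal length the internal E2f3 start could not be tested, as the upstream one took its place, and E2f2 had no tested promoter with 50% cover. Over the fits with 1 library left out, p27KO values ran from -0.26 to 0.0205 (Rb1), -0.38 to 0.11 (Rbl1), -0.10 to 0.15 (Rbl2), -0.37 to 0.0598 (E2f2) and -0.37 to 0.0873 (internal E2f3), and WT values from -0.35 to 0.11 (internal E2f3), -0.11 to 0.24 (E2f7) and -0.0691 to 0.0574 (E2f8).

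Replicate numbers are shared between the groups of a genotype. Deviations of same-numbered libraries correlated by 0.06, 0.06 and 0.03 in WT, where each library correlated best with its own number, and by -0.14 in p27KO. Whether the numbers pair the samples cannot be told from these small values, and the main fit was unpaired. The replicate block left 4 called member regions in WT and 4 in p27KO, losing the E2f1 promoter (adjusted p = 0.0948 by limma) and the E2f4 region at 20.4 kb (adjusted p = 0.0963 by limma). Crossing the p27KO numbers, a pairing chosen after seeing the data, also gave 4 and 4. The comparisons between genotypes could not be fitted with a block within genotype. With the spread estimated over promoters alone, also added after seeing the data, 0 of 10 member promoters were called in each comparison.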
